A study of Mus musculus with 40 samples.

Results

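Gene expression was compared between 2 stages of early T-cell development in the thymus, ETP (early T-cell precursors) and DN3 (the double-negative 3 stage), in MxCre control mice, which carry the Cre but no floxed Zmiz1 allele. The comparison used the 3 ETP and the 3 DN3 libraries titled MxCre, 6 of the 40 libraries of the series, and every gene of their count table. The series itself asks what loss of Zmiz1, a co-activator of Notch1, or a block of Notch1 does at these stages, and both MxCre groups are controls in which nothing was deleted. The mice were C57BL/6 and received 40 mcg of pI-pC by intraperitoneal injection 5 times, 1 dose every 2 days, and both populations were sorted 8 weeks later. In MxCre mice the Cre is driven by the interferon-inducible Mx1 promoter, which is not specific to T cells, and pI-pC, a double-stranded RNA analogue, induces it. The labels give 3 mice per group and do not say whether an ETP and a DN3 library with the same number came from the same mouse. Libraries are named here by stage and replicate number.

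ETP are the most immature progenitors in the thymus: they still carry genes of blood stem and progenitor cells and can give rise to myeloid, dendritic and natural killer cells as well as T cells. Notch1 signalling from the thymic stroma turns on the T-cell program, and by DN3 the cells are committed to the T lineage, cut and join the T-cell receptor beta gene with the Rag1-Rag2 recombinase, and test the product in the pre-T-cell receptor, made of the beta chain, the Ptcra chain and the CD3 subunits. In textbook gates ETP are CD44+ Kit+ CD25- and DN3 are CD44- CD25+, CD25 being the product of Il2ra.

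The labels describe the DN3 gate as CD44+ and CD25-, the same phenotype as for ETP without the cKit requirement, which is at odds with the usual DN3 definition, so the stages were checked against their markers. Levels are in CPM, counts relative to library totals scaled by TMM factors, in the order of replicates 1, 2 and 3. Cd44 stood at 102, 186 and 129.8 CPM in ETP and 6.49, 5.49 and 3.37 in DN3, and Kit, the stem cell factor receptor, at 343, 452 and 346 CPM in ETP and 93.9, 88.1 and 71.9 in DN3. Both groups were apart, with DN3 low. Il2ra stood at 1590, 1873 and 2208 CPM in ETP and 2129, 3202 and 3907 in DN3. It was thus high in every library, the ETP libraries included, and ETP 3 lay above DN3 1. Cd44, Kit and Il2ra encode proteins of the sort and their levels are given as a check of the gates, not as a finding. Of the other DN3 markers, Ptcra, Rag1, Cd3e and Dtx1 were higher in every DN3 library than in every ETP library, whereas Bcl11b was at 1144, 546 and 363 CPM in ETP and 1203, 1217 and 1067 in DN3, where ETP 1 overlapped the DN3 libraries. The ETP markers Cd34, Flt3, Lmo2, Lyl1, Mef2c and Bcl11a were higher in every ETP library. The libraries labelled DN3 thus held DN3 transcripts, and those labelled ETP held progenitor transcripts together with high Il2ra RNA.

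Total counts ran from 16985331 to 23962394 in ETP and from 16537447 to 19133150 in DN3. RNA came from 5000 to 20000 ETP cells and from 100000 to 400000 DN3 cells, and each library was made from 10 ng of RNA with 16 PCR cycles. The ETP libraries were the noisier group. Across the 12399 genes tested, log2(CPM + 1) values of ETP pairs correlated at 0.894 to 0.908, DN3 pairs at 0.963 to 0.973, and ETP with DN3 libraries at 0.875 to 0.915. These are descriptions over genes, which are not replicates. ETP 1 correlated at a median of 0.908 with the DN3 libraries and 0.901 with its own stage, whereas the other libraries correlated more with their own stage. The SD between replicates was larger in ETP for 76.4% of genes, and 334 genes (2.69%) were at 0 in at least 1 ETP library while another held 5 CPM or more, against 6 genes (0.0484%) in DN3. Rn45s, the ribosomal RNA precursor, took 14.8% to 16.3% of counts in ETP and 6.76% to 8.82% in DN3; its part in the results below was not tested. Xist was present in all 6 libraries, and of the Y-linked genes only a single Ddx3y count was found, in ETP 1.

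Among the genes called, more were higher in ETP than in DN3. With edgeR's quasi-likelihood test, the main test here, 371 of 12399 genes (2.99%) passed a Benjamini-Hochberg adjusted p of 0.05. Of these, 260 (2.1% of genes tested) were higher in ETP and 111 (0.895%) were higher in DN3, a share of 29.9% of calls for DN3. Differences over 4-fold numbered 139 in favour of ETP and 56 in favour of DN3. The median log2 fold change, DN3 minus ETP throughout and given below with its standard error (SE), was -0.01 over all genes tested. With unscaled totals that median moved to 0.14 and the split to 158 higher in DN3 and 199 higher in ETP (44.3% for DN3), so the changes below are relative to the middle gene. DESeq2 called 1151 of 13432 genes (8.57%), 455 higher in DN3 (3.39%) and 696 in ETP (5.18%); its counts for gene lists below are over the genes that edgeR tested too. At an unadjusted p under 0.05, edgeR had 936 higher in DN3 and 1135 in ETP. In 2999 genes (24.2%) the 3 values of one stage did not overlap the 3 of the other, 1527 (12.3%) with DN3 above and 1472 (11.9%) with ETP above. The number of calls depended on single libraries: it was 146, 149 and 194 without DN3 1, DN3 2 and DN3 3, 135 without ETP 2, 521 without ETP 3 and 735 without ETP 1. Without ETP 1 the directions were nearly even, with 369 higher in DN3 and 366 in ETP, and a spread shared by 8 groups gave 762 and 712. In bulk RNA, fewer cells of a type and less RNA per cell cannot be told apart.

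**Figure D1:**
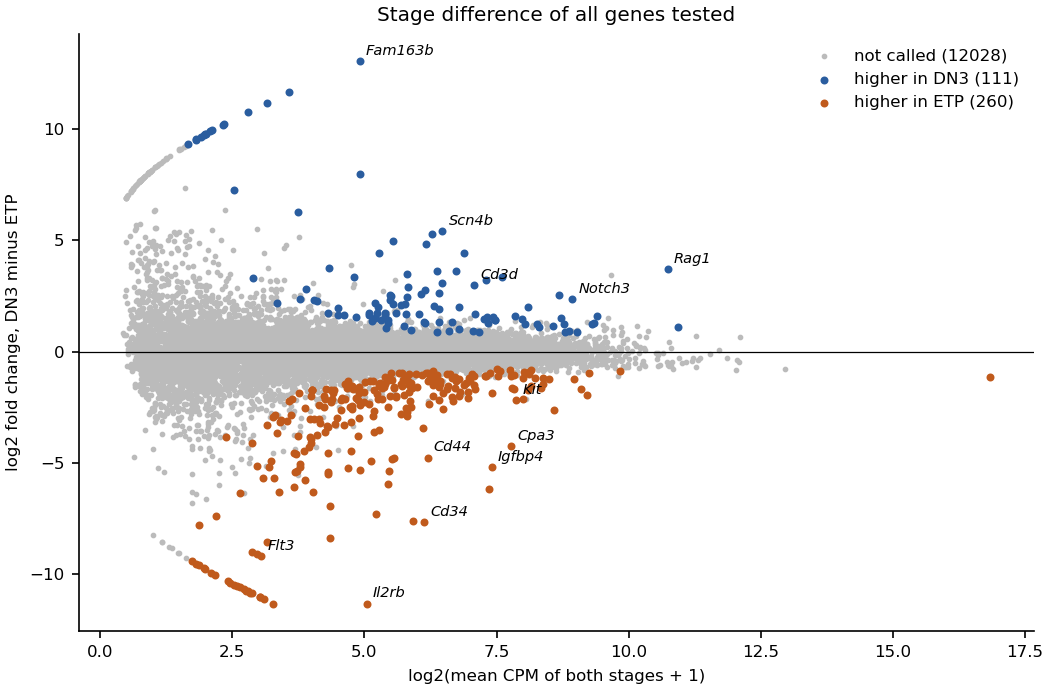
Log2 fold change (DN3 minus ETP, y axis) against mean level (log2 of CPM + 1, x axis) for the 12399 genes tested; blue points are the 111 genes higher in DN3, orange points the 260 higher in ETP, grey points were not called. The curved rows of points at the top left and bottom left are genes with 0 counts in all 3 libraries of one stage, whose fitted values depend on the prior count, and the orange point at the far right is Rn45s.

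Of the Notch pathway, the receptors Notch1 and Notch3 and the targets Dtx1 and Ptcra were higher in DN3. Notch receptors are cleaved on binding ligand, and the released domain joins the DNA-binding factor Rbpj to switch on targets. Of 30 tested members of the list of receptors, targets and regulators, these 4 were higher in DN3 and 1 was higher in ETP (Lfng). That is 16.7% called, against 2.99% of all genes tested, with a median log2 fold change of 0.11. Notch3 (chr17:32120820-32166852, minus strand), a receptor that is itself a Notch1 target, stood at 237, 128 and 112 CPM in ETP and 734, 1056 and 648 in DN3 (log2 fold change 2.35, SE 0.322, adjusted p = 0.00479). Every DN3 library lay above the highest ETP library, ETP 1, and the means differed 5.1-fold. Notch1 (chr2:26457903-26516663, minus strand) was at 1662, 1096 and 902 CPM in ETP and 2593, 2949 and 2460 in DN3 (log2 fold change 1.13, SE 0.251, adjusted p = 0.045). The groups did not overlap, but the Notch1 call was lost without DN3 1, DN3 2, DN3 3 or ETP 2 (adjusted p from 0.102 to 0.215). Dtx1 (chr5:120680202-120711927, minus strand), a ubiquitin ligase and Notch target, was at 20.5, 27.6 and 7.88 CPM in ETP and 124, 173 and 172 in DN3 (log2 fold change 3.07, SE 0.412, adjusted p = 0.00459), an 8.39-fold difference between means with ETP 3 lowest.

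Other direct Notch targets did not follow Notch3 and Dtx1 past the test. Hes1, a repressor, stood at 45, 33.7 and 47 CPM in ETP and 75, 56.2 and 63.8 in DN3 (adjusted p = 0.2), and Nrarp, a feedback inhibitor of Notch, at 6.53, 25.4 and 20.1 CPM in ETP and 4.72, 4.46 and 10.7 in DN3 (adjusted p = 0.274), with its higher values in ETP 2 and ETP 3. Hes1 did not overlap between stages, and Nrarp did. Il2ra, a gene of the sort, gave an adjusted p of 0.198 in edgeR and 0.0482 in DESeq2. Myc was at 104, 97.2 and 79.2 CPM in ETP and 212, 123 and 94.3 in DN3 (adjusted p = 0.336). Lfng, a glycosyltransferase that modifies Notch, was higher in ETP, at 63.5, 61.9 and 71 CPM in ETP and 33.5, 34.1 and 32.8 in DN3 (log2 fold change -0.97, SE 0.206, adjusted p = 0.0376); that call was lost without DN3 1, DN3 2, DN3 3, ETP 2 or ETP 3 or with unscaled totals (adjusted p from 0.055 to 0.208). Zmiz1 itself, intact in these mice, stood at 308, 231 and 149 CPM in ETP and 268, 330.3 and 298 in DN3 (adjusted p = 0.537), with overlapping stages. Rbpj was at 192, 197 and 138 CPM in ETP and 154, 159 and 176 in DN3 (adjusted p = 0.874).

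**Figure D2:**
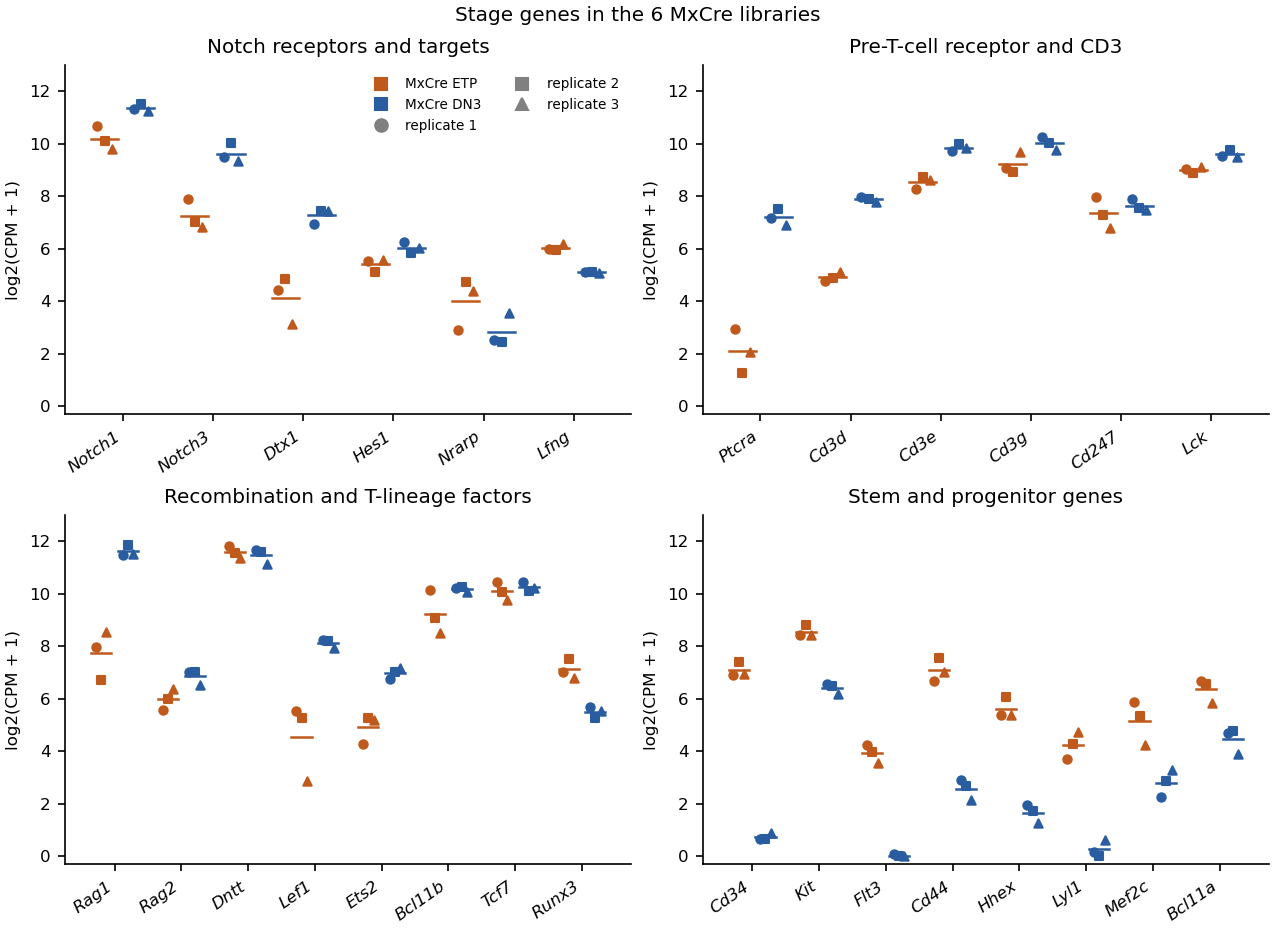
Levels of 28 genes in each of the 6 MxCre libraries (log2 of CPM + 1, y axis), ETP in orange and DN3 in blue, with a symbol per replicate and a line at the mean. Ptcra, Cd3d, Rag1, Notch3 and Dtx1 show the DN3 points above all ETP points, Cd34, Kit, Cd44, Flt3 and Hhex the reverse, and Dntt and Tcf7 show overlapping stages.

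Of the parts of the pre-T-cell receptor, Ptcra, Cd3d and Cd3e were higher in DN3. By edgeR's main test with all libraries they were the only calls among 35 tested members of the list of the receptor and its signalling. That is 8.57%, against 2.99% of all genes tested. The list's median was 0.16, and that test called no member higher in ETP, against 3 at an unadjusted p under 0.05 and 3 by DESeq2. DESeq2 also called 9 higher in DN3. A filter at a mean of 10 counts gave 4 higher in DN3 and 1 in ETP, and a spread shared by 8 groups gave 10 and 3. A term for replicate number gave 6 and 0. Without ETP 3 the median was -0.01 and 1 member was called higher in ETP. Without ETP 1, 5 were called higher in DN3 and 2 in ETP. Ptcra (chr17:46755663-46763712, minus strand), the invariant partner of the beta chain, stood at 6.64, 1.42 and 3.25 CPM in ETP and 145, 184 and 120.3 in DN3 (log2 fold change 5.31, SE 0.502, adjusted p = 0.000973), 39.6-fold higher in DN3 by means. Cd3d (chr9:44981786-44987339, plus strand), a signalling subunit, was at 26.3, 28.5 and 34.2 CPM in ETP and 254, 238 and 219 in DN3 (log2 fold change 3.00, SE 0.203, adjusted p = 0.000228), with ETP libraries within a narrow range. Cd3e (chr9:44998740-45009627, minus strand) was at 309.7, 431 and 389.9 CPM in ETP and 854, 1010 and 911 in DN3 (log2 fold change 1.30, SE 0.199, adjusted p = 0.00811), a call lost without DN3 2 (adjusted p = 0.0541). Cd3g (chr9:44969572-44980431, minus strand), the neighbour of Cd3d, was at 540.3, 488 and 825 CPM in ETP and 1215, 1049 and 872 in DN3 (adjusted p = 0.148; DESeq2 0.0277). Its DN3 libraries all lay above its ETP libraries, DN3 3 only just above ETP 3, and without ETP 3 it was called (adjusted p = 0.0215).

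The zeta chain and the signalling genes named here did not pass edgeR's main test with all libraries. Cd247, the zeta chain, was at 249.6, 154 and 111 CPM in ETP and 239, 189.8 and 177 in DN3 (adjusted p = 0.774), and Lck, the kinase that starts receptor signalling, at 522, 479 and 556 CPM in ETP and 744, 876 and 718 in DN3 (adjusted p = 0.135; DESeq2 0.01). Lat, Zap70 and Fyn, which act after Lck or beside it, had log2 fold changes of 0.53, -0.22 and -0.39, with adjusted p of 0.212, 0.829 and 0.618. Themis, a thymocyte signalling adaptor, stood at 246, 126 and 179 CPM in ETP and 369.5, 367 and 434 in DN3 and just missed the threshold (adjusted p = 0.0503; DESeq2 0.000874), with no overlap between the stages. It was called without ETP 1 (adjusted p = 0.0127), with unscaled totals (0.0323) and with either other filter (0.032 and 0.0479).

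Of the recombinase genes, Rag1 passed the test in every alternative run and Rag2 in some of them. Rag1 and Rag2 together cut receptor genes, and Dntt adds untemplated bases at the joins. Of 15 tested recombination and repair genes 1, Rag1, was called (6.67% against 2.99% of all genes tested), and the list's median was 0.22. Rag1 (chr2:101638282-101649501, minus strand) stood at 248, 106 and 378 CPM in ETP and 2855, 3702 and 2963 in DN3 (log2 fold change 3.70, SE 0.423, adjusted p = 0.00234), a 13-fold difference between means with ETP 2 lowest. Rag2 (chr2:101624718-101632529, plus strand), which lies beside Rag1 on the opposite strand, was at 46.9, 63.6 and 81.6 CPM in ETP and 130, 129 and 91.8 in DN3 (adjusted p = 0.111; DESeq2 0.034). Its stages did not overlap, and it was called without ETP 3 (adjusted p = 0.0369) and with a spread shared by 8 groups (adjusted p = 0.0313). Dntt was at 3621, 3027 and 2625 CPM in ETP and 3236, 3137 and 2266 in DN3 (adjusted p = 0.893), and its stages overlapped.

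Neighbouring genes can also be set against each other within a library, where scaling cancels. The Rag1 to Rag2 count ratio was 5.29, 1.66 and 4.63 in ETP and 22, 28.6 and 32.3 in DN3. For Cd3d to Cd3g it was 0.0488, 0.0584 and 0.0414 in ETP against 0.209, 0.227 and 0.251 in DN3. The stages were apart for both. For Cd3e to Cd3g it was 0.573, 0.883 and 0.472 against 0.703, 0.963 and 1.04, with overlap. An exact two-sided permutation test of the log ratios over the 6 libraries gave p = 0.1, the smallest it can give, for the first 2 ratios and 0.2 for Cd3e to Cd3g (0.133 and 0.2 adjusted over 4 ratios, Notch3 to Notch1 being the other), so none passed. The ratios were chosen after their values were seen and say nothing of the relative amount of the transcripts, since they are not corrected for length.

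In edgeR's main test the called genes Ptcra, Rag1 and Cd3d had log2 fold changes of 5.31, 3.70 and 3.00. The uncalled neighbours Rag2 and Cd3g had 0.87 and 0.76. Neighbours thus fell on either side of the threshold, so the start-site regions of these genes are shown. Each is the RefSeq window (GRCm38.p6) from 250 bases before to 50 after the annotated start, 5′ to 3′ on the gene's strand. Capitals mark matches on either strand to TGGGAA, the core of Rbpj sites, and to CANNTG, the E-box bound by E proteins; where matches overlap, the capitals run together. The start sites of Rag1 and Rag2 are 24820 bases apart in these tables and those of Cd3d and Cd3g 1355.

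Ptcra (chr17:46763663-46763962, minus strand): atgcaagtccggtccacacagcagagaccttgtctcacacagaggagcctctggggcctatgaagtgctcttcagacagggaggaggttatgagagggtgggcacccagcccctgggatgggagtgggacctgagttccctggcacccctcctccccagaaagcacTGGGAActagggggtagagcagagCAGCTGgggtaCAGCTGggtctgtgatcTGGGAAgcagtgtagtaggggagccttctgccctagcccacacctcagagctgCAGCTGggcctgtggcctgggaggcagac
Rag1 (chr2:101649483-101649782, minus strand): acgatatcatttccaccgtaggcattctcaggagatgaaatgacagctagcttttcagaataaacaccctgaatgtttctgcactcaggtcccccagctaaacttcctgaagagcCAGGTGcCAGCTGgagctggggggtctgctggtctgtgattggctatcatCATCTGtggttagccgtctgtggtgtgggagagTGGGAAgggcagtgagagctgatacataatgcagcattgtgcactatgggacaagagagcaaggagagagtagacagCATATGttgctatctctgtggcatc
Rag2 (chr2:101624462-101624761, plus strand): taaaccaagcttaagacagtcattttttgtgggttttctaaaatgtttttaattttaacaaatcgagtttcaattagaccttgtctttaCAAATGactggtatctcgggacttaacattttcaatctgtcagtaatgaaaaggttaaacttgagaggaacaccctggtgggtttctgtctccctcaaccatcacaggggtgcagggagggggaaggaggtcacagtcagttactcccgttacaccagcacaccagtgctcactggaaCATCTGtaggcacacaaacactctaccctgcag
Cd3d (chr9:44981536-44981835, plus strand): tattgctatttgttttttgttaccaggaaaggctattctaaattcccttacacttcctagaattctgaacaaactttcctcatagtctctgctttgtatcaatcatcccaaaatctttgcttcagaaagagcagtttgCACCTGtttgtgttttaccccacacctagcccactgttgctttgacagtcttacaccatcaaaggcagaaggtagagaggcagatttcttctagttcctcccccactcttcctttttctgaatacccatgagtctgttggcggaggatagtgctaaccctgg
Cd3g (chr9:44980382-44980681, minus strand): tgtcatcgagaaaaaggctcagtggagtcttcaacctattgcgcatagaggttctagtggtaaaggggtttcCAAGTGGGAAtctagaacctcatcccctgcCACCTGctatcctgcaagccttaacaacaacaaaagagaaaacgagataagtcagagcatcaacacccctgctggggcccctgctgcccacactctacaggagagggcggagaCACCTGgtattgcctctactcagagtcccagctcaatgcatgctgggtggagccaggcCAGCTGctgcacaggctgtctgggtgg

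The Ptcra window held 2 Rbpj and 3 E-box matches, that of Rag1 1 and 4, and that of Rag2 0 and 2. The Cd3d window held 0 and 1, and the Cd3g window 1 and 4, where the Rbpj match overlaps an E-box match. Neither motif separated the called from the uncalled neighbours. Over the promoters found by symbol, TGGGAA occurred in 22.9% of 8808 tested genes, 17.3% of 81 genes higher in DN3 and 21.7% of 189 higher in ETP. CANNTG occurred in 63.1%, 67.9% and 67.2%. The Runx core TGTGGT occurred in 12.8%, 6.17% and 19%. The Gata core AGATAA occurred in 6.45%, 4.94% and 10.6%. The Ets core GGAAGT occurred in 29.5%, 24.7% and 28%. The Tcf and Lef core CTTTGA occurred in 12.3%, 9.88% and 16.9%. Over all 32851 windows of the table the shares were 25.6%, 72.3%, 16.8%, 11.2%, 23.8% and 16% in the same order. Both strands were searched, and a match is a description of letters, not a site.

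Among T-lineage transcription factors 3 of 21 tested members were called (14.3% against 2.99% of all genes tested). Lef1 and Ets2 were higher in DN3 and Runx3 was higher in ETP; the list's median was -0.08 and turned to 0.07 with unscaled totals, 0.20 without ETP 1 and 0.12 without ETP 2. Lef1 (chr3:131110471-131224356, plus strand), an HMG-box factor of the Wnt pathway, stood at 45, 37.9 and 6.41 CPM in ETP and 305, 295 and 244 in DN3 (log2 fold change 3.24, SE 0.571, adjusted p = 0.0154), with ETP 3 lowest; the call was lost without DN3 1, DN3 2 or ETP 2 (adjusted p from 0.0513 to 0.076). Ets2 (chr16:95702075-95721051, plus strand), an ETS-family factor, was at 18.7, 37.2 and 35.5 CPM in ETP and 107, 130 and 144 in DN3 (log2 fold change 2.06, SE 0.288, adjusted p = 0.00541) and kept its call in every alternative run. Runx3 (chr4:135120652-135177990, plus strand), a Runt-domain factor, was at 129, 185 and 112 CPM in ETP and 50.2, 37.3 and 45.9 in DN3 (log2 fold change -1.67, SE 0.246, adjusted p = 0.00653), also in every alternative.

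The factors best known for T-cell specification did not pass. Tcf7, which encodes the Notch-induced factor TCF-1, was at 1414, 1070 and 879 CPM in ETP and 1399, 1106 and 1208 in DN3 (adjusted p = 0.84), and Gata3 at 227, 177 and 146 CPM in ETP and 177, 123 and 164 in DN3 (adjusted p = 0.685). Bcl11b, the commitment factor, had an adjusted p of 0.333 (DESeq2 0.182). Without ETP 1, the library with the most Bcl11b of the ETP group, it was called (adjusted p = 0.0143). Runx1 was at 614, 408 and 294 CPM in ETP and 608, 616 and 499.9 in DN3 (adjusted p = 0.542), and Ets1 at 612, 646 and 481 CPM in ETP and 918, 898 and 945 in DN3 (adjusted p = 0.102; DESeq2 0.00481), with no overlap for Ets1.

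Of the E proteins, Tcf12 (HEB) was the 1 called among 5 tested members of the E protein and Id list (20% against 2.99% of all genes). It stood at 351, 283 and 306 CPM in ETP and 574, 553 and 604 in DN3 (log2 fold change 0.88, SE 0.179, adjusted p = 0.0291). The call was lost without DN3 1, DN3 2, DN3 3 or ETP 2 (adjusted p from 0.113 to 0.149). Tcf3, which encodes the E2A proteins, stood at 356, 306 and 322 CPM in ETP and 339, 349 and 318 in DN3 (adjusted p = 0.96). Id2, an E-protein antagonist of innate lymphoid cells, varied widely within ETP: it was at 2.34, 89.5 and 22.4 CPM in ETP and 3.38, 2.4 and 5.29 in DN3 (adjusted p = 0.116; DESeq2 0.00273), and ETP 1 lay below DN3 1. Id3 was at 2.29, 7.03 and 0 CPM in ETP and 12.6, 7.38 and 10.4 in DN3 (adjusted p = 0.58). Id4 had no count, and Id1 had counts in DN3 3 alone.

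Genes of blood stem cells and progenitors were higher in ETP where they differed. All 22 tested members had fitted values below 0, 13 were called and all 13 were higher in ETP (59.1% against 2.1% of all genes), with a median log2 fold change of -2.75. The 13 include Cd44 and Kit, genes of the sort. DESeq2 called 16. A member could pass the filter on low counts through ETP alone, which bears on the direction and the median. Of the 25 listed, 8 were under 1 CPM in every DN3 library and 3 in every ETP library. The list was drawn up with such results known, so its direction is not independent evidence. The count was 7 without DN3 1 or without ETP 2, and 9 to 14 without each other library. Summed over the list, ETP libraries held 1482 to 1986 CPM and DN3 libraries 565 to 778.

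Cd34 (chr1:194938819-194961279, plus strand), a surface mucin of blood progenitors, stood at 120.4, 169 and 123 CPM in ETP and 0.59, 0.572 and 0.856 in DN3 (log2 fold change -7.65, SE 0.319, adjusted p = 6.72e-06). Flt3 (chr5:147330741-147400489, minus strand), the receptor of the earliest lymphoid progenitors, was at 17.9, 14.9 and 10.8 CPM in ETP and had 1 count over the 3 DN3 libraries, a ratio of 798 (95% counting interval 143 to 31600; adjusted p = 0.00212). Hhex (chr19:37434810-37440731, plus strand), a homeobox factor, was at 41, 65.9 and 40.8 CPM in ETP and 2.9, 2.29 and 1.41 in DN3 (log2 fold change -4.48, SE 0.411, adjusted p = 0.000793). These 3 kept their calls in every alternative run.

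Among transcription factors of the progenitor program, Lyl1 was at 12.1, 18.4 and 25.6 CPM in ETP and 0.107, 0 and 0.554 in DN3 (log2 fold change -6.33, SE 1.01, adjusted p = 0.00999), a call lost without DN3 1 (adjusted p = 0.0583). Lmo2, its bridging partner, was at 17.3, 9.62 and 1.74 CPM in ETP and had no count in DN3, at least 168-fold higher in ETP against a floor of 3 counts over the group (adjusted p = 0.0197); its call was lost without DN3 1, DN3 2, DN3 3 or ETP 2 (adjusted p from 0.0541 to 0.0781). Mef2c was at 57.5, 40 and 18.2 CPM in ETP and 3.76, 6.29 and 8.71 in DN3 (log2 fold change -2.62, SE 0.493, adjusted p = 0.0209), a call lost without DN3 1, DN3 2, DN3 3 or ETP 2 (adjusted p from 0.05 to 0.104). Bcl11a, the paralogue of Bcl11b used in early lymphoid progenitors, was at 102, 92.9 and 56.2 CPM in ETP and 25.3, 26.7 and 13.8 in DN3 (log2 fold change -1.93, SE 0.33, adjusted p = 0.0139), a call lost without DN3 1 or ETP 2 (adjusted p from 0.0572 to 0.0724). Mycn was at 52.8, 56.8 and 57 CPM in ETP and 17.8, 18.4 and 25.8 in DN3 (log2 fold change -1.43, SE 0.257, adjusted p = 0.0169), a call lost without DN3 1, DN3 2 or ETP 2 (adjusted p from 0.0724 to 0.113). Erg, Nfe2 and Runx2, further factors of early blood cells, were the other called members.

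Members that did not pass included Sfpi1, the older symbol of the PU.1 gene Spi1, at 16.8, 6.72 and 7.42 CPM in ETP and 1.07, 0 and 0 in DN3 (adjusted p = 0.142; DESeq2 0.00566). Meis1, a Hox cofactor, was at 3.52, 13.4 and 6.78 CPM in ETP and 0.107, 1.66 and 0.604 in DN3 (adjusted p = 0.168; DESeq2 0.016), with no overlap. Hoxa9 was at 3.29, 5.24 and 2.47 CPM in ETP and 0.912, 0 and 0 in DN3 (adjusted p = 0.394), and Hoxa7 at 17, 12.7 and 45.9 CPM in ETP and 25.5, 24.1 and 15.2 in DN3 (adjusted p = 0.892), where the stages overlapped. Hoxa10 had no count in any of the 6 libraries.

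Receptors for cytokines and growth factors were higher in ETP where they differed. Of 30 tested members 8 were called (26.7% against 2.99% of all genes tested), all in that direction, with a median of -0.71. Kit, a gene of the sort, and Flt3 are among them, and Il18r1, Il18rap and Il12rb2, receptors of inflammatory cytokines, complete the 8 beside those described here. Il4ra (chr7:125552120-125579474, plus strand), the interleukin-4 receptor chain, stood at 63.8, 85.3 and 58.1 CPM in ETP and 7.51, 6.01 and 4.43 in DN3 (log2 fold change -3.53, SE 0.317, adjusted p = 0.000698). Il1rl1 (chr1:40429570-40465415, plus strand), the interleukin-33 receptor of mast and type 2 innate cells, was at 16.7, 38.9 and 21.6 CPM in ETP and 1.56, 1.37 and 0.554 in DN3 (log2 fold change -4.46, SE 0.579, adjusted p = 0.00402). Il2rb (chr15:78479256-78495271, minus strand), the beta chain of the interleukin-2 receptor, was at 10.2, 147 and 34.8 CPM in ETP, spread widely with ETP 2 highest, and had 1 count in DN3 (adjusted p = 0.00308). These 3 calls held in every alternative run. The receptor of interleukin-7, Il7r, on which early thymocytes depend, was at 179, 328 and 165 CPM in ETP and 146, 157 and 128 in DN3 (adjusted p = 0.27). Without DN3 1, DN3 2 or ETP 2 the count of receptors called was 5. No receptor was called higher in DN3 by edgeR's main test. At an unadjusted p under 0.05 there were 2, and a spread shared by 8 groups gave 1. DESeq2 called 2, among them Il2ra, a gene of the sort. A member could pass the filter on low counts through ETP alone.

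Of 33 tested homing and adhesion receptors and their regulators, 4 were called (12.1% against 2.99% of all genes tested), all higher in ETP. The median was -0.93. Itgb7 (chr15:102215995-102231944, minus strand), the beta chain of gut-homing integrins, stood at 74.8, 127 and 58 CPM in ETP and 4.35, 2.75 and 2.17 in DN3 (log2 fold change -4.81, SE 0.415, adjusted p = 0.000638). Klf2 (chr8:72319033-72321656, plus strand), a factor that drives egress receptors, was at 21.1, 34.5 and 11.8 CPM in ETP and 1.02, 0.801 and 1.01 in DN3 (log2 fold change -4.56, SE 0.563, adjusted p = 0.00313). Both kept their calls in every alternative run. S1pr4, a sphingosine phosphate receptor, was at 25.4, 35.6 and 32.7 CPM in ETP and 10.3, 11.2 and 7.05 in DN3 (log2 fold change -1.72, SE 0.339, adjusted p = 0.0254), a call lost without DN3 1, DN3 2, DN3 3 or ETP 2 (adjusted p from 0.0961 to 0.12). Cxcr6 was at 17.2, 152 and 26.3 CPM in ETP and 0.805, 4.92 and 0.806 in DN3 (log2 fold change -4.91, SE 1.02, adjusted p = 0.0322), a call lost without DN3 1, DN3 3, ETP 2 or ETP 3 or with a filter at 1 count (adjusted p from 0.0679 to 0.141), with most of its signal in ETP 2. Cxcr4 and Ccr9, which guide thymocytes in the cortex, were at 206, 178 and 217 CPM in ETP and 213, 199 and 193 in DN3 (adjusted p = 0.994) and at 47, 99.7 and 14.6 CPM in ETP and 157, 141 and 35.5 in DN3 (adjusted p = 0.492). The count of 4 was 2 without DN3 1, DN3 3 or ETP 2. It was 3 without DN3 2, 8 without ETP 1 and 6 without ETP 3. DESeq2 called 14 of the same members, none higher in DN3. A term for replicate number gave 7 higher in ETP and 1 in DN3, and a spread shared by 8 groups gave 13 and 1.

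Some genes used as markers of other blood lineages were higher in ETP. Of the 30 myeloid markers 15 passed the filter on low counts. Of these 3 were called (20% against 2.99% of all genes tested), Mpo, Tyrobp and Ctss, all higher in ETP. The median was -2.35 over the 15. A member could pass that filter through ETP alone. Mpo (chr11:87793581-87804413, plus strand), the granule peroxidase of early myeloid progenitors, stood at 164, 151 and 41.2 CPM in ETP and 1.77, 0 and 0 in DN3 (log2 fold change -7.64, SE 1.13, adjusted p = 0.00674); the call was lost with a filter at 1 count (adjusted p = 0.0905). Ctss (chr3:95526786-95556403, plus strand), a lysosomal protease, was at 15.5, 54.2 and 39 CPM in ETP and 0.912, 1.72 and 1.91 in DN3 (log2 fold change -4.57, SE 0.566, adjusted p = 0.00314). Tyrobp, a signalling adaptor of myeloid and natural killer cells, was at 6.53, 21.6 and 7.28 CPM in ETP and had no count in DN3, at least 209-fold higher in ETP (adjusted p = 0.00734), a call lost without ETP 2 (adjusted p = 0.0651). Of the 30 listed, Elane, Prtn3, Fcgr1, S100a8 and S100a9 were at 0 in all 6 libraries, 10 were under 1 CPM in every ETP library and 19 in every DN3 library. The count of 3 was 2 without ETP 2 or with a filter at 1 count. It was 4 without ETP 1 and 6 without ETP 3. The summed list was 255 to 459 CPM in ETP and 79.2 to 91.1 in DN3.

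Of 12 mast and basophil markers 3 could be tested, and all 3 were called higher in ETP, against 2.1% of all genes tested. Cpa3 (chr3:20215620-20242181, minus strand), a mast-cell protease also found in early progenitors, was at 419, 324 and 503 CPM in ETP and 33.1, 13.2 and 18.5 in DN3 (log2 fold change -4.26, SE 0.364, adjusted p = 0.000638), called in every alternative run. Srgn, a granule proteoglycan, was at 113, 136 and 173 CPM in ETP and 60.2, 47.6 and 38.3 in DN3 (log2 fold change -1.53, SE 0.247, adjusted p = 0.0104), a call lost without DN3 2, DN3 3 or ETP 2 (adjusted p from 0.0505 to 0.0647). The other called member was Il1rl1, and Fcer1a, Prss34, Tpsb2 and Tpsab1 were at 0 in all 6 libraries.

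Of 28 natural killer and innate lymphoid markers 15 were tested and 6 called (40% against 2.99% of all genes tested), all higher in ETP. The median was -3.28. Of the 28, 9 had no count in DN3, and here too a member could pass the filter through ETP alone, which bears on the direction and the median. Zbtb16 (chr9:48654297-48836222, minus strand), the PLZF factor of innate lymphoid precursors, stood at 12.1, 28.2 and 7.42 CPM in ETP and 0, 0 and 0.101 in DN3 (log2 fold change -8.57, SE 1.14, adjusted p = 0.00452), with 2 counts in DN3 and a ratio of 418 (95% counting interval 115 to 3460). Gzmb, a cytotoxic granule protease, was at 1.9, 31.5 and 18.5 CPM in ETP and had no count in DN3, at least 317-fold higher in ETP (adjusted p = 0.0135), a call lost without ETP 2 (adjusted p = 0.073). Nkg7, Il18r1, Il1rl1 and Il2rb were the others. Gzma was instead at 140.4, 59.2 and 51.1 CPM in ETP and 149.5, 80.8 and 176 in DN3 (adjusted p = 0.454), with overlap. The list's sum was 1008 CPM in ETP 2, 639.5 and 570.5 in ETP 1 and ETP 3, and 359 to 408 in DN3. Markers of mature killer cells were uneven within ETP: Klrb1c, which encodes NK1.1, was at 0, 49.4 and 11.4 CPM and Tbx21, which encodes T-bet, at 0, 27.1 and 1.83, while Ncr1 was at 0 in all 6 libraries. The count of 6 was 3 without ETP 2 and 12 without ETP 1; the part of other cells in the sort was not tested.

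B-cell, erythroid and stromal markers gave few calls, though these were 16.7%, 20% and 42.9% of members tested, against 2.99% of all genes. Of 6 tested B-cell markers 1, Cd74, was called higher in ETP, and Pax5 was at 0 in all libraries. That count was 0 without DN3 1, DN3 2, DN3 3 or ETP 2, with unscaled totals, with either other filter and with a term for replicate number. Of 5 tested erythroid and megakaryocyte markers 1, Car2, was called higher in ETP. Of 7 tested stromal markers 2 were higher in ETP, Vim and Pdgfrb, and 1 was higher in DN3, Epcam. Vim, an intermediate filament gene active in many immature cells, was at 474, 729 and 787 CPM in ETP and 74.4, 70.7 and 179 in DN3 (log2 fold change -2.62, SE 0.384, adjusted p = 0.00649), while Foxn1, Krt5, Krt8 and Cxcl12 were at 0 in all libraries. Pdgfrb was at 168, 132 and 152 CPM in ETP and 58.1, 44.6 and 77.5 in DN3 (log2 fold change -1.33, SE 0.24, adjusted p = 0.0174), a call lost without DN3 1, DN3 2 or ETP 2 (adjusted p from 0.061 to 0.104), and Epcam at 12.3, 4.93 and 21 CPM in ETP and 58.8, 62.1 and 54.8 in DN3 (log2 fold change 2.20, SE 0.453, adjusted p = 0.0314), a call lost without DN3 1, DN3 2, DN3 3 or ETP 1 (adjusted p from 0.0536 to 0.119). Of 17 tested dendritic-cell markers 4 (23.5%) were higher in ETP (Runx2, Flt3, H2-Eb1 and Cd74), and Clec9a was at 0 throughout. The count was 1 without DN3 1, DN3 2, DN3 3 or ETP 2 and with unscaled totals. Of 11 tested gamma-delta markers 2 (18.2%) were higher in ETP, Cpa3 and Zbtb16, neither specific to that lineage.

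Markers of later T-cell stages were divided. Of 18 tested double-positive thymocyte markers 2, Rag1 and Ets2, were called (11.1% against 2.99% of all genes). Both were higher in DN3, and the list's median was 0.78. The sum was 4766 to 5706 CPM in DN3 against 1101 to 1500 in ETP, and most of the difference was Rag1. Without ETP 1 the count was 6, and with a spread shared by 8 groups it was 7 in DN3 and 1 in ETP. Cd8a and Cd8b1 were at 5.3, 1.54 and 1.74 CPM in ETP and 2.84, 7.96 and 8.76 in DN3 and at 0.614, 4.56 and 0 CPM in ETP and 4.45, 2.23 and 8.41 in DN3 (adjusted p = 0.582 and 0.707). Cd4 was at 13.4, 16.3 and 22.4 CPM in ETP and 3.49, 2.4 and 7.96 in DN3 (adjusted p = 0.107; DESeq2 0.0166), with ETP above DN3 in every library. Of 22 mature T-cell markers 27.3% were called, 2 higher in DN3 (Dgka and Ctla4) and 4 in ETP (Klf2, Gimap3, Gimap6 and Igfbp4). The first count was 0 without DN3 1, DN3 3 or ETP 2 and 1 without DN3 2 or ETP 3, and the second was 2 without DN3 2, DN3 3 or ETP 2 and 7 without ETP 1. The Dgka call was lost without DN3 1, DN3 2, DN3 3, ETP 2 or ETP 3 (adjusted p from 0.054 to 0.263). Igfbp4 (chr11:99041244-99054392, plus strand), an IGF-binding protein, stood at 264, 330.2 and 389 CPM in ETP and 6.81, 1.89 and 17.9 in DN3 (log2 fold change -5.20, SE 0.67, adjusted p = 0.00385) and was called in every alternative run. Ctla4, a co-inhibitory receptor, was at 18.4, 10.7 and 15.8 CPM in ETP and 52.9, 40.8 and 85.5 in DN3 (log2 fold change 1.99, SE 0.349, adjusted p = 0.0152), a call lost without DN3 1, DN3 3 or ETP 2 (adjusted p from 0.0597 to 0.0782).

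**Figure D3:**
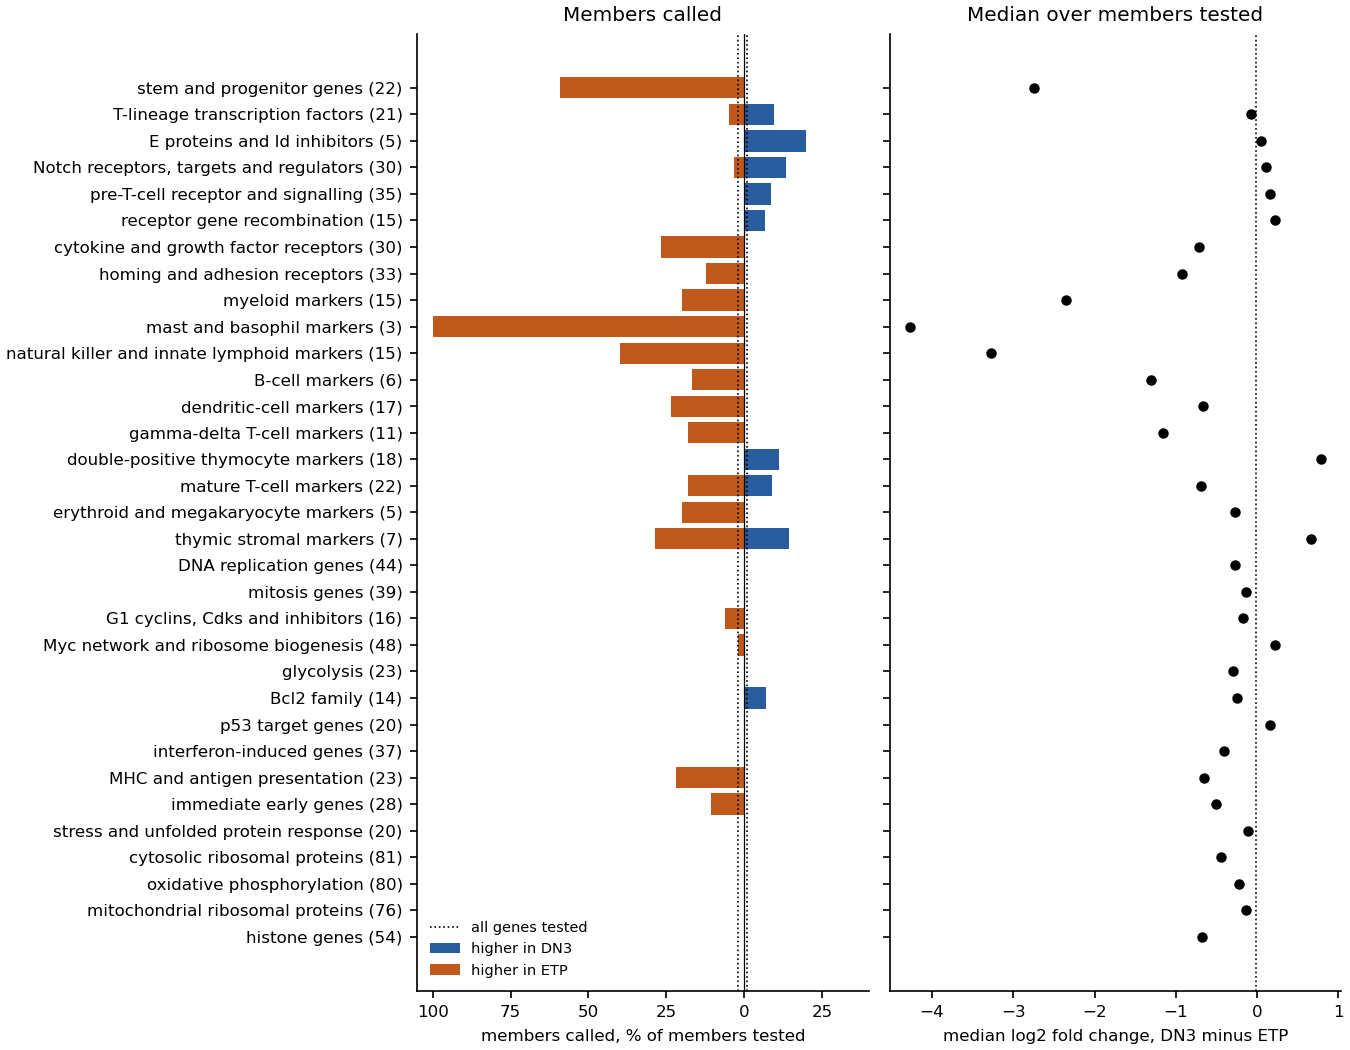
Left, the share of tested members of each gene list that was called higher in DN3 (blue, to the right) or in ETP (orange, to the left), with the number tested in brackets and dotted lines at the shares for all genes, 0.895% and 2.1%. Right, each list's median log2 fold change (DN3 minus ETP), with a dotted line at -0.01 for all genes; the stem and progenitor list sits at -2.75 with 13 of 22 members called.

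Antigen presentation genes were higher in ETP where called: 5 of 23 tested members passed (21.7% against 2.99% of all genes), with a median of -0.66. Of the classical class I genes, H2-K1 was at 387, 653 and 421 CPM in ETP and 198, 138 and 131 in DN3 (log2 fold change -1.65, SE 0.263, adjusted p = 0.00992), a call lost without DN3 2, DN3 3 or ETP 2 (adjusted p from 0.0513 to 0.0647), and H2-D1 at 354, 598 and 434 CPM in ETP and 214, 192 and 201 in DN3 (log2 fold change -1.19, SE 0.223, adjusted p = 0.0201), a call lost without DN3 1, DN3 2, DN3 3 or ETP 2 (adjusted p from 0.087 to 0.128). Class I genes are near-identical in parts, so how reads were shared among them is uncertain. H2-T23, H2-Eb1 and the invariant chain gene Cd74 were the other 3. The edgeR count was 0 without DN3 2, DN3 3 or ETP 2, 1 without DN3 1 and 6 without ETP 1 or ETP 3, and it was 2 with unscaled totals. With all libraries, 10 members were higher in ETP at an unadjusted p under 0.05, and DESeq2 called 9. Interferon-induced genes, which pI-pC itself raises acutely, had a median of -0.41 over 37 tested members, and none was called by edgeR's main test. At an unadjusted p under 0.05, 9 were higher in ETP, and DESeq2 called 3. Without ETP 3, 1 was called, and a spread shared by 8 groups gave 4, all higher in ETP.

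Immediate early genes gave 3 calls of 28 (10.7% against 2.99% of all genes tested), Dusp5, Dusp6 and Rgs1, all higher in ETP. Dusp6, a feedback phosphatase of the MAP kinase pathway, was at 30.8, 56.3 and 60.9 CPM in ETP and 7.14, 8.18 and 12.7 in DN3 (log2 fold change -2.40, SE 0.374, adjusted p = 0.00895), a call lost without DN3 1, DN3 2 or ETP 2 (adjusted p from 0.0503 to 0.0572). The list's sum was 1957 CPM in ETP 2 against 798.5 and 690.4 in ETP 1 and ETP 3 and 732 to 950 in DN3. Its median was -0.51 with all libraries and turned to 0.61 without ETP 2, when no member was called. The count was also 0 without DN3 1 or DN3 2, 1 without DN3 3, 5 without ETP 1 and 4 without ETP 3. At an unadjusted p under 0.05 with all libraries, 5 were higher in ETP and 2 in DN3, and DESeq2 called 3 and 1.

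**Figure D4:**
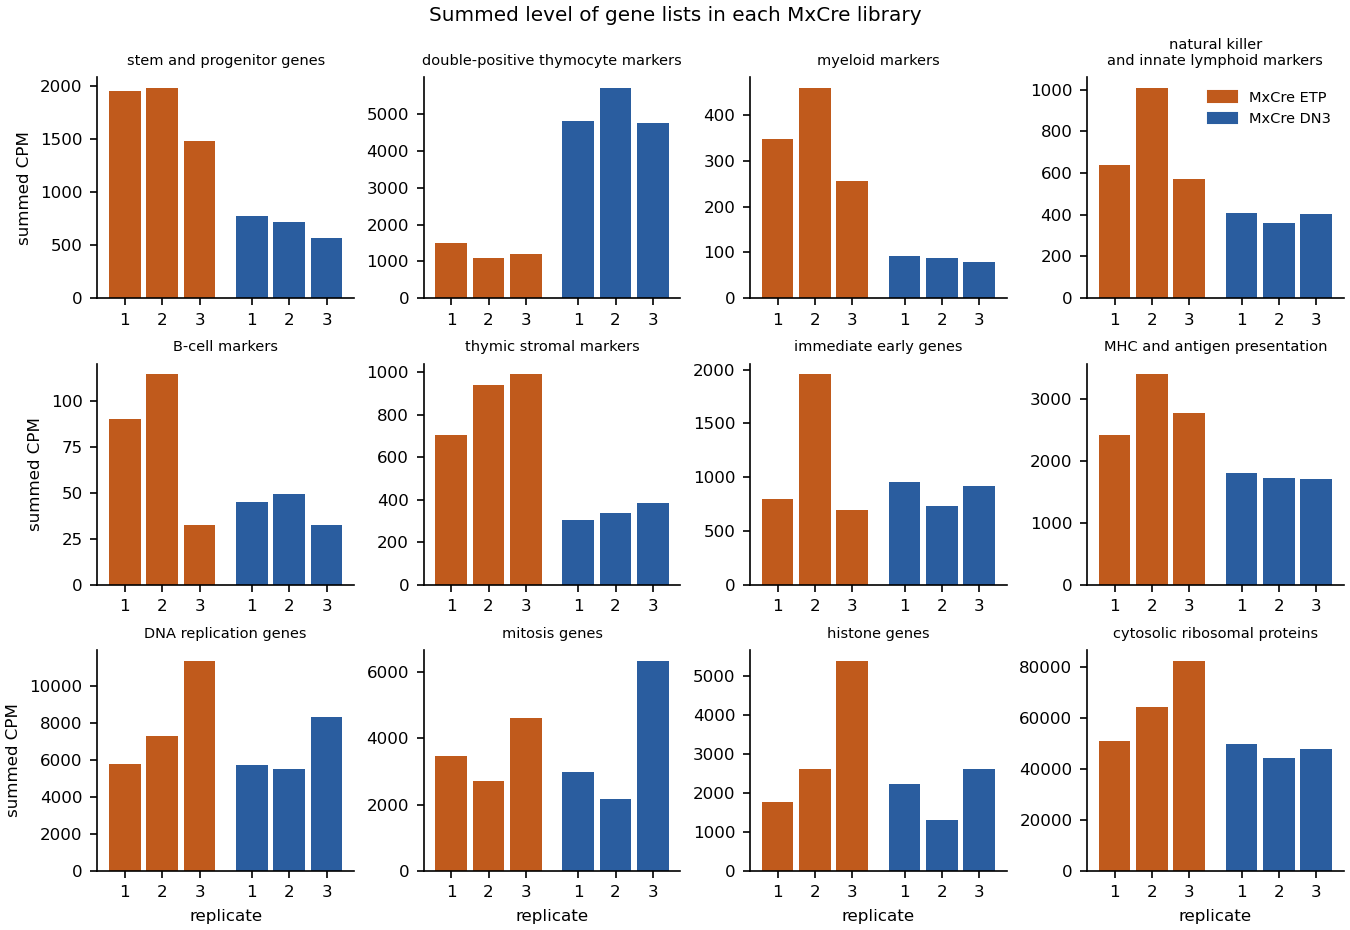
Summed CPM of 12 gene lists (y axis, from 0, with its own scale in each panel) in each MxCre library, ETP in orange and DN3 in blue, bars numbered by replicate. ETP 2 is highest for immediate early genes (1957 CPM) and killer and innate lymphoid markers (1008 CPM), ETP 3 for DNA replication, histone and ribosomal protein genes, and DN3 3 for mitosis genes.

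Cell-cycle genes varied among libraries of a stage, and 1 of them was called by edgeR's main test. None of 44 DNA replication or 39 mitosis genes was called by edgeR's main test, against 2.99% of all genes tested. At an unadjusted p under 0.05, 7 replication genes were higher in ETP and 1 mitosis gene was higher in DN3, and DESeq2 called 2 and 0. Replication genes summed to 5766, 7308 and 11354 CPM in ETP and 5715, 5475 and 8332 in DN3, and their median of -0.27 turned to 0.13 without ETP 3. Without ETP 1, 1 was called, with a term for replicate number 4 and with a spread shared by 8 groups 2, all higher in ETP. Mitosis genes summed to 3478, 2726 and 4599 CPM in ETP and 2991, 2176 and 6343 in DN3, with DN3 3 highest, and their median of -0.14 was 0.02 with unscaled totals, 0.12 without DN3 2, 0.19 without ETP 3 and -0.77 without DN3 3. Of the 16 G1 genes 1 was called (6.25% against 2.99% of all genes tested). This was Ccnd3, the D-type cyclin needed when thymocytes expand after beta selection. Ccnd3 was at 136, 193 and 191 CPM in ETP and 76.9, 74.6 and 105 in DN3 (log2 fold change -1.02, SE 0.227, adjusted p = 0.0454). Its call was lost without DN3 1, DN3 2, DN3 3, ETP 2 or ETP 3 or with unscaled totals (adjusted p from 0.0593 to 0.254). Ccnd2 and Cdk6 were at 380.1, 546 and 573 CPM in ETP and 392, 519 and 504 in DN3 and at 764, 570 and 566 CPM in ETP and 604, 649.7 and 631 in DN3 (adjusted p = 0.912 and 0.989).

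By edgeR's main test with all libraries growth genes gave 1 call in all. Of 48 genes of the Myc network and ribosome biogenesis 36 had values above 0, with a median of 0.22. The 1 call (2.08% against 2.99% of all genes tested) was Mycn, higher in ETP. DESeq2 called 6 higher in DN3, and a spread shared by 8 groups gave 9. Cytosolic ribosomal protein genes had a median of -0.45 over 81 tested, 70 of them below 0. None was called by edgeR's main test, 27 were higher in ETP at an unadjusted p under 0.05, and DESeq2 called 9. Their sum was 50810, 64201 and 82575 CPM in ETP and 49831, 44474 and 47781 in DN3, again with ETP 3 highest, and without ETP 3 the median was -0.22. Without ETP 1, 8 members were called, with a spread shared by 8 groups 18 and with a term for replicate number 1, all higher in ETP. Oxidative phosphorylation, glycolysis, histone, mitochondrial ribosomal protein, p53 target and stress genes had no call by edgeR's main test with all libraries, against 2.99% of all genes. With a spread shared by 8 groups glycolysis and stress genes each had 1 call higher in DN3 and 2 in ETP. Oxidative phosphorylation and p53 target genes each had 1, higher in DN3, with that spread. A term for replicate number gave 1 glycolysis gene higher in DN3 and 2 stress genes higher in ETP. Without ETP 1 glycolysis had 3 and stress 2, without DN3 3 glycolysis had 1, and it had 1 with unscaled totals or a filter at 1 count. Their medians lay between -0.68, for histones, and 0.16, for p53 targets. With unscaled totals the medians of stress and mitochondrial ribosomal protein genes turned from -0.11 to 0.06 and from -0.14 to 0.02, and without ETP 3 those of histone, mitochondrial ribosomal protein and oxidative phosphorylation genes turned to 0.08, 0.08 and 0.03. Without ETP 2 that of stress genes was 0.05. At an unadjusted p under 0.05 they had 4, 4, 2, 1, 1 and 2 members higher in ETP and 1, 1, 0, 0, 2 and 2 higher in DN3, and DESeq2 called 1, 3, 0, 0, 0 and 3.

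Among death and survival genes, 1 of 14 tested Bcl2 family members was called (7.14% against 2.99% of all genes tested). Bmf (chr2:118528757-118549687, minus strand), a BH3-only killer protein, was higher in DN3 at 12.3, 19.1 and 11.6 CPM in ETP and 76.1, 82.9 and 59.1 in DN3 (log2 fold change 2.34, SE 0.288, adjusted p = 0.00308), in every alternative run. Bcl2, the survival factor, was at 439, 299 and 210.5 CPM in ETP and 216, 168 and 238 in DN3 (adjusted p = 0.301), and Bcl2l11, which encodes the killer protein Bim, at 7.59, 44.1 and 20.5 CPM in ETP and 53.3, 39.9 and 43 in DN3 (adjusted p = 0.432).

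The 12 largest differences toward DN3, taken where the DN3 mean was 20 CPM or more, included genes outside the lists. By fold the first was Fam163b (chr2:27110380-27142491, minus strand), with no count in ETP and 68.8, 81.8 and 23.5 CPM in DN3, at least 1060-fold higher (adjusted p = 0.00108). Slc5a9, a sugar transporter, was at 0.67, 0 and 0 CPM in ETP and 52.4, 63 and 58.3 in DN3 (log2 fold change 8.01, SE 0.927, adjusted p = 0.00249). Scn4b (chr9:45138395-45154152, plus strand), a sodium channel subunit, was at 3.85, 4.38 and 3.85 CPM in ETP and 144, 238 and 132 in DN3 (log2 fold change 5.41, SE 0.307, adjusted p = 6.28e-05), with ETP libraries nearly equal and all DN3 libraries far above them. Odz1, the older symbol of the teneurin gene Tenm1, was at 4.24, 2.16 and 1.88 CPM in ETP and 55.6, 84 and 124 in DN3 (log2 fold change 4.99, SE 0.443, adjusted p = 0.000674), and Mllt4, the older symbol of the afadin gene Afdn, at 3.74, 1.17 and 5.04 CPM in ETP and 32.9, 71.7 and 111 in DN3 (log2 fold change 4.42, SE 0.601, adjusted p = 0.00479). H19, an imprinted non-coding RNA, was at 21, 7.15 and 3.21 CPM in ETP and 171, 278 and 223 in DN3 (log2 fold change 4.42, SE 0.604, adjusted p = 0.00479). Its call was lost with a term for replicate number (adjusted p = 0.0506). The others of the 12 were Ogdhl, Arhgef10l, Slc15a2, Adamts17, Ptcra and Rag1, of which Ogdhl lost its call without DN3 1, DN3 2, DN3 3 or ETP 2 (adjusted p from 0.0652 to 0.129) and Adamts17 without ETP 2 (adjusted p = 0.055). The Slc15a2 call was lost with a spread shared by 8 groups (adjusted p = 0.134), and that of Arhgef10l with a term for replicate number (adjusted p = 0.0784).

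Of the 12 largest differences toward ETP, Cd34, Il2rb, Mpo, Il18rap, Car2 and Gimap3 also stand in the lists. Samhd1 (chr2:157097533-157135265, minus strand), a nucleotide hydrolase that restricts viruses, was at 40.9, 121 and 53.5 CPM in ETP and 0.59, 0.229 and 0.504 in DN3 (log2 fold change -7.32, SE 0.583, adjusted p = 0.000508), in every alternative run. Car2, a carbonic anhydrase, was at 38.7, 30.6 and 11.1 CPM in ETP and 1.02, 0.286 and 0.151 in DN3 (log2 fold change -5.77, SE 0.806, adjusted p = 0.00541). Nrgn, a calmodulin-binding protein, was at 39, 42.1 and 30 CPM in ETP and 1.45, 0 and 0.957 in DN3 (log2 fold change -5.51, SE 0.873, adjusted p = 0.00981), a call lost without ETP 2 (adjusted p = 0.055). Chn2, Fgl2, Gimap3 and Ahnak were highest in ETP 2. Ahnak, a large scaffold protein, was at 46.3, 788 and 125 CPM in ETP and 4.45, 3.55 and 5.39 in DN3 (log2 fold change -6.16, SE 0.981, adjusted p = 0.00992). The Ahnak call was lost without DN3 1, DN3 2 or ETP 3 or with a filter at 1 count (adjusted p from 0.0597 to 0.113). With a term for replicate number it was lost too (adjusted p = 0.201). Chn2 was at 11.6, 87.8 and 16.5 CPM in ETP and 0.322, 0 and 0 in DN3 with a call lost without ETP 2 (adjusted p = 0.0651), Fgl2 at 4.69, 84.4 and 26.1 CPM in ETP and 0, 0.401 and 0.504 in DN3 with a call lost without DN3 1, DN3 2, DN3 3 or ETP 2 (adjusted p from 0.0563 to 0.0924), and Gimap3 at 6.03, 71.7 and 12.6 CPM in ETP and 0, 0.629 and 0.504 in DN3 with a call lost without DN3 1, DN3 2, DN3 3 or ETP 2 (adjusted p from 0.0698 to 0.18).

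The stage difference was set against the same comparison in 2 other mouse groups of the table, with no library in common. In C57BL/6 mice given 10 mg/kg of control IgG 24 hours before sorting, edgeR called 1873 of 12720 genes (14.7%) between ETP and DN3. In DeltaMxCre mice, MxCre Zmiz1f/f animals given the same pI-pC, it called 1418 of 12494 (11.3%). Of the MxCre calls tested in IgG mice, 360 of 361 had the same sign there, the exception being Ttn, and 298 were also called: 82.5% of the MxCre calls and 16.1% of the 1846 IgG calls tested here. Over all 12112 genes tested in both, 72.3% had the same sign. In DeltaMxCre 352 of 354 had the same sign, the exceptions being Eepd1 and Rgs1, and 262 were also called, 74% of the MxCre calls and 18.7% of 1403. Over all 11989 genes, 70.7% had the same sign.

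Tests of the difference between stage differences found few genes. Against IgG, 4 of 13585 genes (0.0294%) passed, all with a larger difference in MxCre: Gm20605, Fbln2, Ldhal6b and Ttc12. Against DeltaMxCre, 1 of 13406 (0.00746%) passed, Fbln2. DESeq2 called 29 and 56, and at an unadjusted p under 0.05 there were 633 and 740. Without MxCre ETP 1, ETP 3 or ETP 2 the count against IgG was 20, 18 and 8. It was 2 without MxCre DN3 1, MxCre DN3 2 or IgG ETP 2, and 1 without IgG ETP 1 or any 1 of the 3 IgG DN3 libraries. Against DeltaMxCre it was 12, 7 and 3 without MxCre ETP 1, ETP 3 and ETP 2, 3 without DeltaMxCre ETP 1, 2 without MxCre DN3 1, and 0 without MxCre DN3 2, MxCre DN3 3 or any 1 of the 3 DeltaMxCre DN3 libraries. What these genes share is the ETP side, where the 3 MxCre libraries had no count at all. Fbln2 (chr6:91212455-91272540, plus strand), an extracellular matrix protein, was at 5.59, 8.96 and 2.38 CPM in IgG ETP and 3.27, 8.1 and 3.52 in DeltaMxCre ETP, on a scale set over the libraries of the whole table. Gm20605 (chr5:137629175-137642899, plus strand), a gene model whose reads may be shared with an overlapping gene since strand use is not given in the sources used here, was at 27.6, 18.3 and 19.9 CPM in IgG ETP and 0.556, 13.6 and 6.33 in DeltaMxCre ETP. In DN3 it stood at 25.7, 26.5 and 17.1 CPM in MxCre and 21.2, 25.1 and 26.2 in IgG. Ptcra did not pass edgeR's main test (adjusted p = 0.126 against IgG and 0.0652 against DeltaMxCre). Its ETP level was 6.88, 1.47 and 3.43 CPM in MxCre, below every ETP library of the other groups. Those stood at 32, 41.6 and 25.5 in IgG and 31.8, 63.9 and 43.7 in DeltaMxCre. Against DeltaMxCre, Ptcra was among the 6 genes with the lowest p, and DESeq2 called it (adjusted p = 9.89e-07). There edgeR also called it without MxCre ETP 1 (adjusted p = 0.00101), MxCre ETP 2 (0.03) or DeltaMxCre ETP 1 (0.0392). Genotype, agent and time differ together between MxCre and IgG mice and cannot be told apart.

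**Figure D5:**
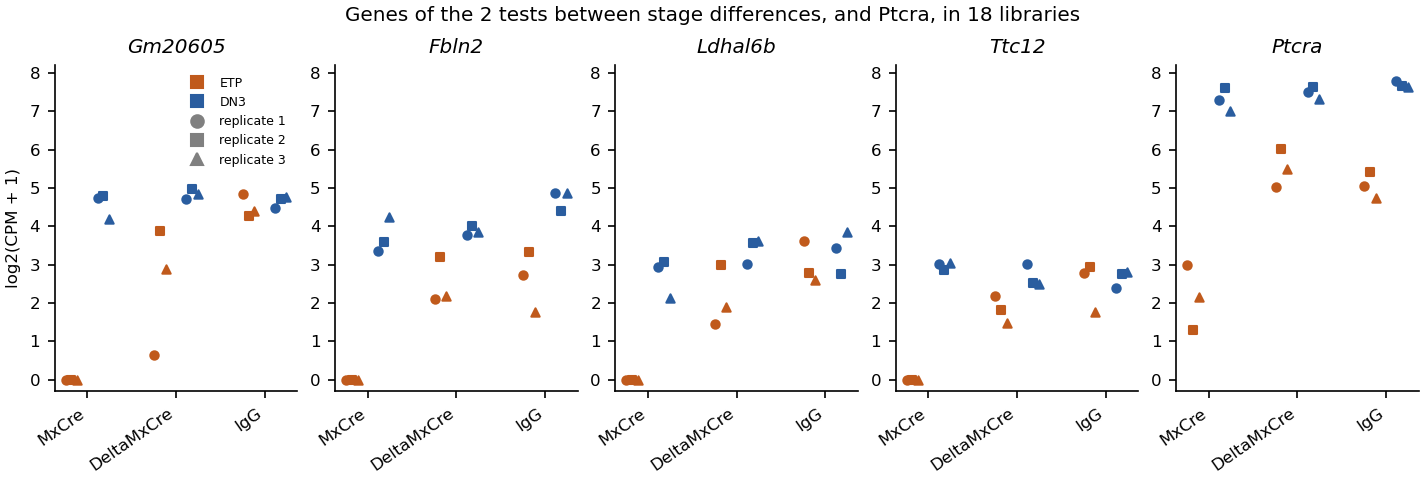
Levels (log2 of CPM + 1, y axis) of Gm20605, Fbln2, Ldhal6b, Ttc12 and Ptcra in the 3 ETP (orange) and 3 DN3 (blue) libraries of MxCre, DeltaMxCre and IgG mice (x axis), with a symbol per replicate. The first 4 genes sit at 0 in all 3 MxCre ETP libraries and above 0 in every library of the other groups, and Ptcra is lowest in MxCre ETP.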

How the data were processed

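The deposited values are expected counts per gene, which the authors made before deposit and which were rounded to whole numbers here (0.687% lay more than 0.01 from one). The submitters' processing notes name Cuffdiff 2.1.1, Cufflinks, Bowtie2 2.1.0.0, TopHat2 2.0.9, FastQC 0.10.0 and build mm10, with no role for each; the annotation, strand use and handling of reads that map to several places are not given in the sources used here. Libraries were made with Takara RiboGone and SMARTer kits, per the labels' protocols.

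Of 23284 genes, 12399 passed edgeR's filterByExpr (minimum count 10, minimum total 15). Stages were compared with edgeR 4.0.16 (R 4.3.3; TMM scaling, robust quasi-likelihood test, prior count 0.125, Benjamini-Hochberg adjusted p under 0.05), on the 6 MxCre libraries alone; SEs are the absolute log2 fold change divided by the root of F. Differences between stage differences were interaction terms over 12 libraries. Where a group had no counts, a fold is a lower bound against 3 counts over the group; intervals are 95% exact and cover counting error only. Alternatives were DESeq2 1.42.0, its size factors, unscaled totals, 2 other filters, a replicate term, a spread shared by 8 groups and leaving out each library. The scripts were tested on simulated data.

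Genes named are a fixed set of stage markers, the 12 largest differences in each direction with 20 CPM or more and no overlap (gene models left out), up to 4 called members per direction of each list, and the 6 lowest p of each interaction; other names were chosen after their values were seen. A few genes that the rule names are not reported here. The lists and members were chosen with earlier results of these data known. Of 1012 list entries, 8 were matched by an older symbol and 12 were unmatched. Coordinates are GENCODE M21 on GRCm38, and promoter sequences are from RefSeq on GRCm38.p6.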

Additional observations from a re-analysis of the deposited data

Results flagged for a closer look

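The stage difference of 4 genes differed between MxCre and IgG mice by the interaction test of edgeR, and that of 1 gene also between MxCre and DeltaMxCre mice. For Gm20605 the adjusted p against IgG was 5.34e-06: it was at 0 in the 3 MxCre ETP libraries and at 25.7, 26.5 and 17.1 CPM in MxCre DN3, while both stages of IgG mice held 18.3 to 27.6 CPM. For Fbln2 the adjusted p was 0.0187 against IgG and 0.0271 against DeltaMxCre: it was at 0 in MxCre ETP, at 9.17, 11 and 17.8 CPM in MxCre DN3, at 28.2, 20.1 and 28.1 in IgG DN3 and at 12.7, 15.1 and 13.5 in DeltaMxCre DN3. For Ldhal6b the adjusted p against IgG was 0.0307, with 0 in MxCre ETP, 6.65, 7.45 and 3.33 CPM in MxCre DN3, 11.3, 5.87 and 5.06 in IgG ETP and 9.87, 5.8 and 13.3 in IgG DN3. For Ttc12 it was 0.0307, with 0 in MxCre ETP, 7.05, 6.3 and 7.24 CPM in MxCre DN3, 5.89, 6.69 and 2.38 in IgG ETP and 4.21, 5.74 and 6.02 in IgG DN3. Against IgG, Gm20605 was called in all 18 alternative runs, Fbln2 in 14, Ldhal6b in 10 and Ttc12 in 9. Against DeltaMxCre, Fbln2 was called in 12 of 18. Genes at 0 in 1 or more MxCre ETP libraries with 5 CPM or more in another numbered 334, of which 0 were called between the stages, against 6 in MxCre DN3. The 4 genes above were at 0 in all 3 MxCre ETP libraries and so are not among the 334. The part of low detection in ETP in the 5 results was not tested.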

How the results depend on the processing

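Against 371 calls (111 higher in DN3, 260 in ETP), DESeq2 called 1151 (455 and 696), a spread shared by 8 groups gave 1474 (762 and 712), and the replicate block gave 663 (271 and 392). DESeq2 size factors, unscaled totals and both other filters gave 357 to 431. Leaving out each library gave 135 to 735 calls, 40 to 369 higher in DN3 and 85 to 366 higher in ETP. Differences from IgG numbered 4, or 29 with DESeq2, 6 with the block and 1 to 20 without each library. Differences from DeltaMxCre numbered 1, or 56 with DESeq2, 0 with the block (667 at an unadjusted p under 0.05) and 0 to 12 without each library. Deviations of same-numbered libraries correlated at 0.122, 0.029 and 0.249. ETP 2 and ETP 3 correlated best with the DN3 library of their own number, and ETP 1 with DN3 2 (0.149). These values cannot tell whether the numbers pair the samples, and the main test has no term for replicate number. With the block Ahnak, Arhgef10l and H19, among others, had adjusted p of 0.201, 0.0784 and 0.0506. Of 80 named called genes, 31 were called under all alternatives, and of 1945 values of named genes under alternatives 194 lost the call, 51 gained it and 0 changed direction.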
